A study of Sus scrofa with 50 samples.

Results

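The genes described here are 10 genes of the dividing cell: MKI67, TOP2A, CDK1, CCNB1, CCNA2, BIRC5, CDKN3, TYMS, RRM2 and PCNA. They were read from RNA sequencing of Korean minipigs (Sus scrofa) of 2 types, ET and L, in tissues labelled lymph, brain, backfat, loin and tenderloin. Each gene stands for 1 Swiss-Prot entry, and its value is the sum of the TPM (length-normalised transcript shares) of all assembled transcripts whose best protein match was that entry with an E value of at most 1e-10. Of the 10 genes, 9 had such a transcript, among 14412 entries in all. CCNA2, cyclin A2, had none and is not analysed here.

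Per the labels, S0235, S0242, S0276, S0309 and S0326 were ET pigs (5), while the 5 L pigs were S0349, S0355, S0377, S0384 and S0385. Each pig gave 1 library per tissue. They state no treatment, age, sex or genotype, and do not spell out ET or L. Of the 50 libraries, 5 differed in marker genes from the other libraries of their label and were left out. They were backfat, loin and brain of S0355, and lymph and brain of S0235. The 45 that remain were 4 ET and 5 L libraries in lymph, 4 and 4 in brain, 5 and 4 in backfat, 5 and 4 in loin, and 5 and 5 in tenderloin. In the lymph libraries the T cell gene CD3E lay at 406 to 750 TPM. The kept brain libraries carried the pituitary hormone gene PRL at 805 to 40120 TPM and the myelin gene MBP at no more than 80.1 TPM, the range it had in lymph being 37.2 to 55.5 TPM, so brain is used below as a label. TPM keeps no read depth, and errors below rest on how far animals of a group lay apart.

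Cells copy their DNA in S phase and part the copies in mitosis, and the RNAs of many genes for these steps are made in bursts that fall silent in resting cells. Summed over a tissue, they therefore serve widely as a readout of how many cells are cycling. Lymph nodes hold germinal centres, in which B cells divide fast, whereas mature muscle fibres and fat cells have left the cell cycle. In bulk tissue, fewer cells of a type and less RNA per cell cannot be told apart.

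The 9 genes rested on 11 transcripts, of which 10 came from L assemblies and 1 from an ET assembly (59.5% of all transcripts came from L assemblies). Of these, 6 came from the lymph L assembly, the source of 8.07% of the transcripts used. The transcripts of TOP2A, CDK1, CCNB1, BIRC5, CDKN3 and TYMS each matched most or all of the protein. MKI67 rested on a transcript that matched residues 2721 to 3253 of the human protein with 34.7% identity. PCNA and RRM2 summed 2 transcripts each, with 96.2% and 92.8% of the level in the longer match. In RefSeq's pig assembly Sscrofa11.1 the protein-coding genes lie at chr17:14137746-14142584 (PCNA), chr6:105642730-105660279 (TYMS), chr3:126357198-126367145 (RRM2) and chr12:22001300-22028452 (TOP2A). CDK1 lies at chr14:64233945-64255290, CCNB1 at chr16:47338239-47348385, BIRC5 at chr12:3747276-3755214, MKI67 at chr14:137266622-137296312 and CDKN3 at chr1:183792606-183809178.

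Lymph stood far above the other 4 tissues for all of these genes but CDKN3. With limma on log2(TPM + 1), adjusted over all genes tested, 8 of 9 were higher in lymph than in each other tissue (adjusted p under 0.05 in all 4 contrasts), against 15.4% of all genes tested. Taken singly, 8 of 9 were higher in lymph than in brain (20.7% of all genes tested), 9 than in backfat (42.8%), 8 than in loin (59.1%) and 8 than in tenderloin (61.2%). The same 8 had every one of the 9 lymph libraries above every one of the 36 other libraries, against 7.27% of all genes tested. Their 32 contrasts ran from 1.70 to 5.34 on the log2 scale, with a highest adjusted p of 1.15e-08. For genes near the pseudocount of 1, folds on this scale come out too small. Genes were tested if their mean over the libraries of the fit was at least 1 TPM. This filter admits genes through lymph, as it did TOP2A and CCNB1, whose mean was under 1 TPM in each other tissue. The counts and medians set here against all genes tested are therefore a description only. The median over all genes tested was -0.50 for lymph minus brain, 0.21 for lymph minus backfat, 0.73 for lymph minus loin and 0.78 for lymph minus tenderloin, while the median of the 9 genes was 3.71, 3.93, 4.61 and 4.53.

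Among the genes of DNA copying, PCNA, the sliding clamp of the DNA polymerases, had the highest level of all 9 in lymph. It lay at 65.2 TPM in the lowest, 132 in the median and 213 in the highest lymph library, against at most 37.5 TPM in any library outside lymph. PCNA was present in every tissue, and loin, its lowest, still averaged 14.1 ± 2.72 TPM (SD, n = 9). RRM2, the regulated subunit of the enzyme that makes DNA building blocks, lay at 15.0, 34.4 and 60.3 TPM in lymph by the same 3 measures, against at most 3.87 TPM elsewhere. TYMS, which makes thymidylate for DNA, had lower levels, at 5.61, 10.5 and 15.4 TPM in lymph. Its lowest lymph library lay next to the highest library outside lymph, a brain library at 5.59 TPM. TOP2A, the topoisomerase that untangles copied chromosomes, lay at 8.80, 31.1 and 69.9 TPM in lymph, against at most 1.77 TPM elsewhere.

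Among the genes of mitosis, CDK1, the kinase that starts it, lay at 12.3, 34.8 and 72.6 TPM in the lowest, median and highest lymph libraries, against at most 2.56 TPM elsewhere. CCNB1, cyclin B1, the activating partner of CDK1, lay at 7.93, 30.1 and 65.5 TPM in lymph, against at most 1.59 TPM elsewhere. Both partners covered nearly the same range. BIRC5 (survivin), a member of the complex that guides chromosomes on the spindle, lay at 8.51, 12.6 and 34.9 TPM in lymph, against at most 4.43 TPM elsewhere. MKI67, the coat protein of mitotic chromosomes known as the Ki-67 antigen, lay at 23.5, 33.4 and 94.3 TPM in lymph, against at most 3.69 TPM elsewhere.

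**Figure D1:**
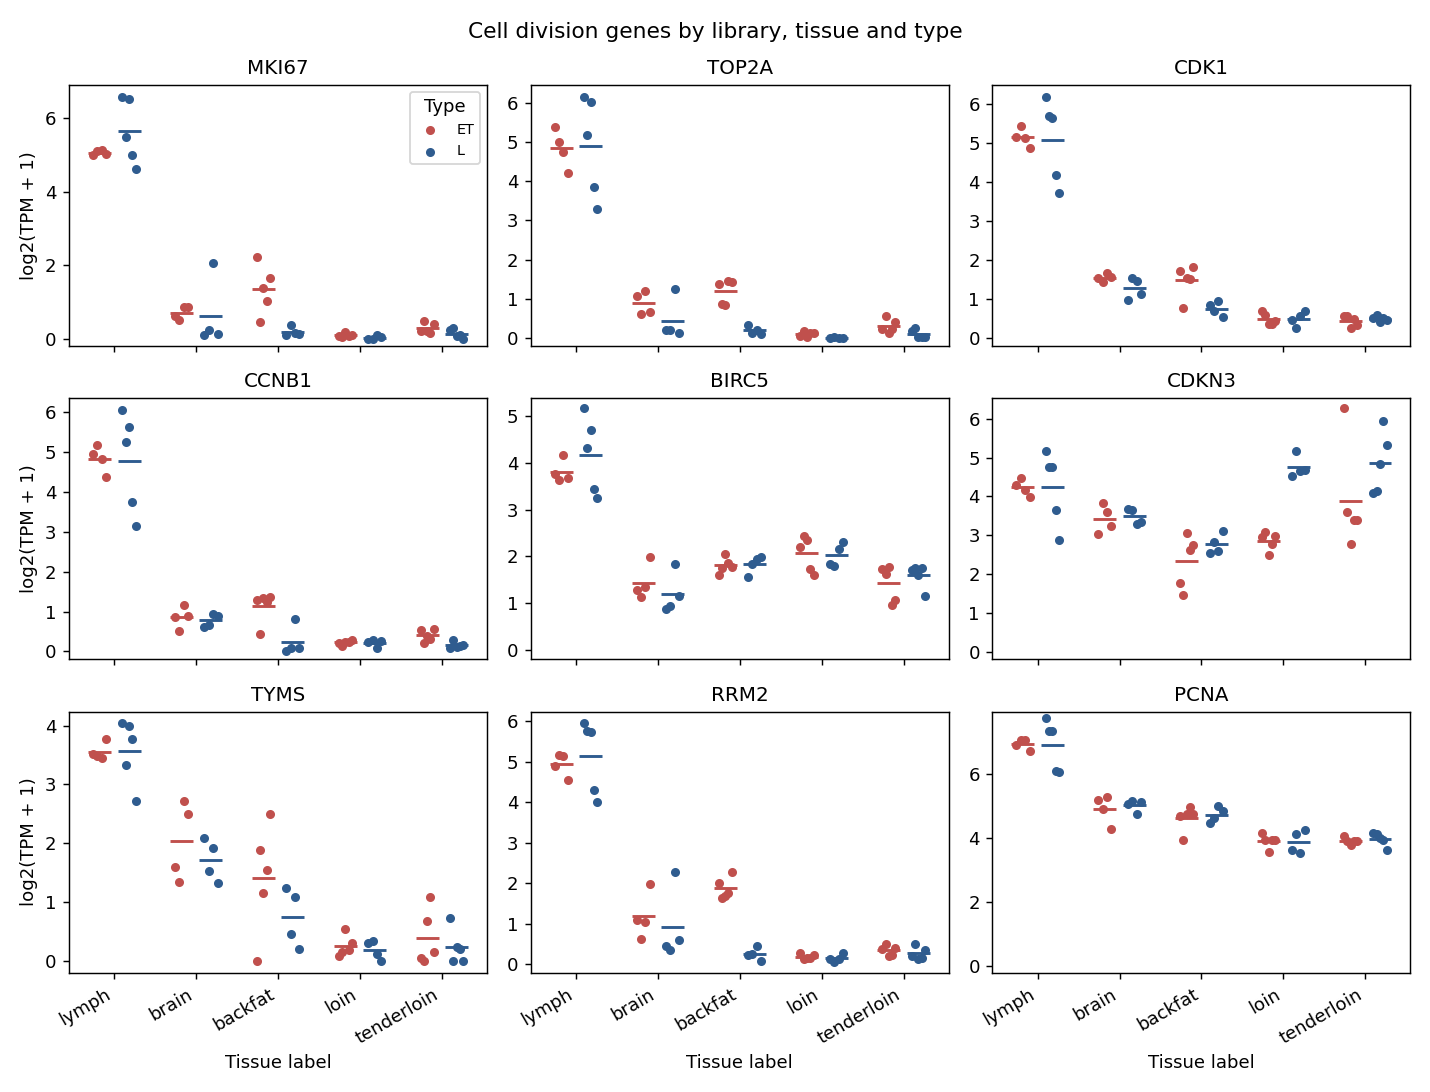
Each point is 1 of the 45 kept libraries, with the log2(TPM + 1) level on the vertical axis, the tissue label on the horizontal axis, ET left of L and a short line at each group's mean. Every lymph point lies above every other point for 8 genes, while CDKN3 reaches its highest values in tenderloin.

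The size of the step between lymph and the next tissue fell into 2 sets. The lymph mean was 43.8 times the next highest tissue mean for MKI67, 42.0 times for TOP2A, 39.6 times for CCNB1, 22.3 times for CDK1 and 22.1 times for RRM2. It was 5.18 times for BIRC5, 4.13 times for PCNA and 3.87 times for TYMS. For BIRC5 the next tissue was loin (16.6 ± 8.58 TPM in lymph, n = 9, and 3.21 ± 0.865 TPM in loin, SD, n = 9). PCNA, CDKN3 and BIRC5 together made up 45.6% of the summed mean TPM of the 9 genes in lymph, against 84.0% in brain, 82.1% in backfat, 97.1% in loin and 96.7% in tenderloin.

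**Figure D2:**
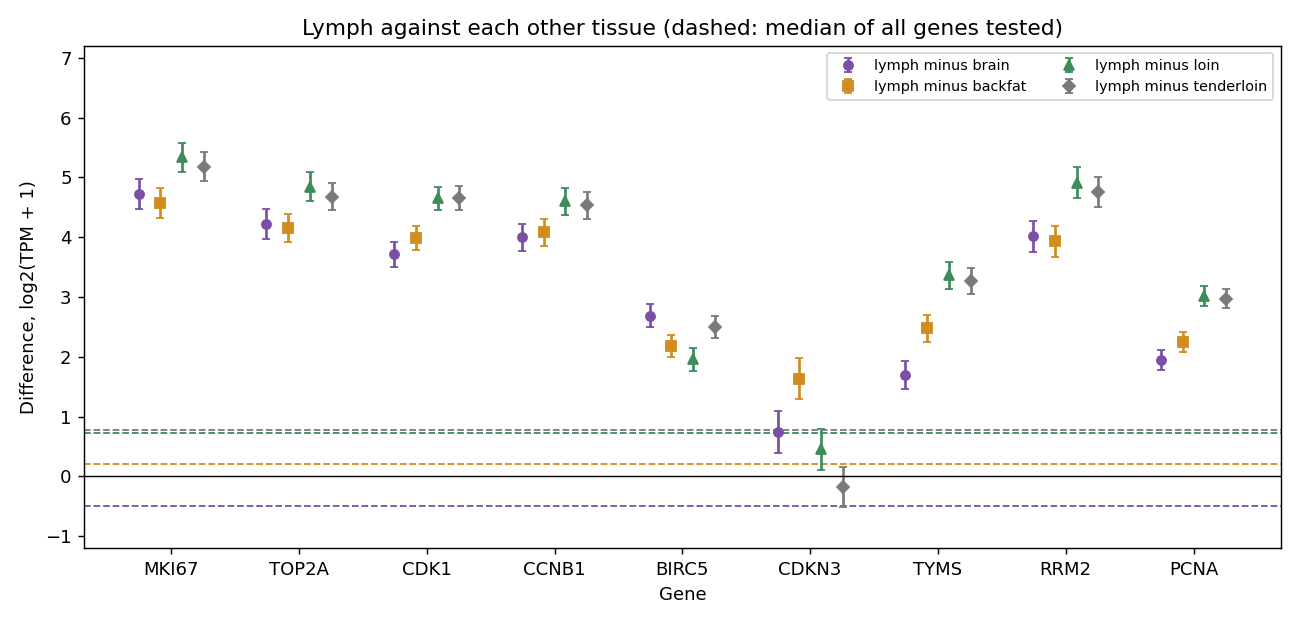
The difference between lymph and each other tissue, in log2(TPM + 1), is drawn for each gene with its standard error from the limma fit, and dashed lines give the median over all genes tested in the same contrast. The 32 values of the 8 genes other than CDKN3 lie between 1.70 and 5.34, whereas those of CDKN3 run from -0.18 to 1.64.

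The wider machinery of division showed a like pattern, again as a description only, since the filter admits genes through lymph. Of 29 other genes of DNA replication tested, 23 were higher in lymph than in each other tissue, among them the helicase subunits MCM3, MCM4 and MCM5 and the ligase LIG1. MCM3 averaged 21.3 TPM in lymph (n = 9) and at most 2.64 TPM in another tissue (brain, n = 8). MCM7, GMNN, CCNE1, CCNE2, RFC4 and CHEK1 did not pass all 4 contrasts. GMNN, which blocks a new round of copying, was lower in lymph than in brain, at 53.4 TPM (n = 9) and 89.0 TPM (n = 8; -0.74 log2). Of 40 other mitosis genes tested, 37 were higher in lymph than in each other tissue, among them CENPA, the histone of the centromere, at 13.9 TPM in lymph and 0.413 TPM in backfat (n = 9 each). KIF23, PRC1 and NUSAP1 did not pass all 4 contrasts, and KIF23, a motor of the dividing midzone, lay at 2.33 TPM in lymph (n = 9) and 7.29 TPM in brain (n = 8; -1.34 log2). Of 14 brakes and G1 regulators tested, 3 were higher in lymph than in each other tissue, a share near the 15.4% of all genes tested. CDKN1A (p21), an inhibitor of cyclin-dependent kinases, was lower in lymph than in each other tissue, at 10.3 TPM in lymph (n = 9) and 198 TPM in loin (n = 9).

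Within lymph, the 9 genes shared their highest and their lowest animal, a feature noticed only after the values were seen. The library of S0349 was the highest of the 9 lymph libraries and that of S0385 the lowest for all 9 genes, CDKN3 included. Of all 11980 genes tested in lymph, 2.25% had both, and 7.84% had S0349 highest. The animals in between were not in 1 order: TYMS, for example, lay at 12.7 TPM in S0384 and 9.01 TPM in S0355, whereas CCNB1 lay at 12.4 and 37.3 TPM. Of the wider lists both held for 12 of 29 DNA replication genes, 27 of 42 mitosis genes and 1 of 15 brakes and G1 regulators. S0349 had 8.25 times the CCNB1 level of S0385, 7.94 times its TOP2A, 5.93 times its CDK1, 3.26 times its PCNA and 2.74 times its TYMS.

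Both extremes were L animals. The summed TPM of the 9 genes was 325.9, 353, 332 and 263 in the ET lymph libraries of S0242, S0276, S0309 and S0326, against 661, 433, 532, 194 and 153 in the L libraries of S0349, S0355, S0377, S0384 and S0385. The 4 ET libraries lay together, and the L libraries fell on either side of them. MKI67 lay at 30.8 to 34.2 TPM in the 4 ET libraries, against 94.3, 43.6, 91.2, 30.8 and 23.5 TPM in the L libraries. CCNB1 lay at 30.1, 35.2, 27.6 and 19.7 TPM in ET, against 65.5, 37.3, 48.8, 12.4 and 7.93 TPM in L, in the same order of animals. Since both extremes were L animals for all 9 genes, the ET range had to lie inside the L range for 9 of 9. It is the same observation and adds nothing to it. The ET range lay inside the L range for 41.1% of all genes tested in lymph.

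**Figure D3:**
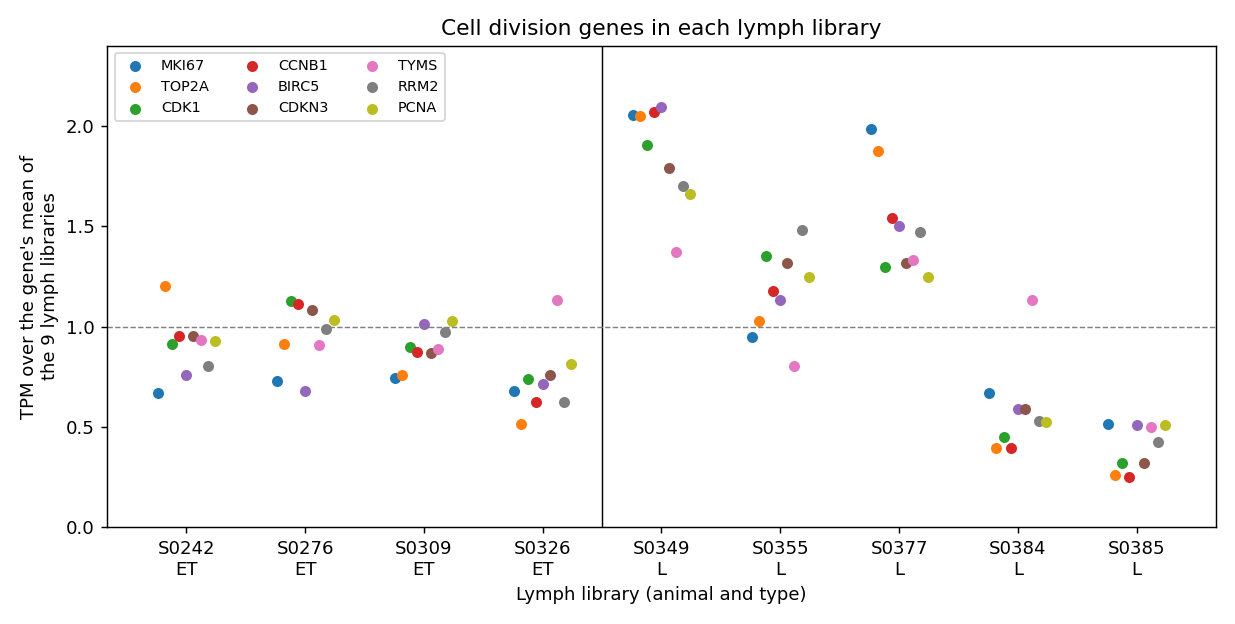
For each of the 9 lymph libraries, ET left and L right of the line, points give each gene's TPM divided by its mean over these libraries. S0349 holds the highest point and S0385 the lowest point of every gene.

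Markers of germinal centres followed this order only in part. The summed level of the 4 germinal centre markers was 95.8 to 334 TPM in ET and 90.9 to 516 TPM in L. In L it was 349.2 TPM in S0349 and 192 TPM in S0385, but the lowest sum, 90.9 TPM, belonged to S0355, whose summed level of the division genes was above all ET libraries. The 5 T cell markers summed to 1132 TPM in S0349 and 827 TPM in S0385, and the 4 B cell markers to 1281 and 1153 TPM. The part of cell make-up in this order was not tested.

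Between the types, none of the 9 genes passed in lymph (limma, adjusted p from 0.882 to 0.999; 0 at an unadjusted p under 0.05), nor did any gene of the 11980 tested (0.0% called; 526 at an unadjusted p under 0.05). The differences, ET minus L, ran from -0.58 for MKI67 (32.4 ± 1.66 TPM in ET, n = 4, and 56.7 ± 33.7 TPM in L, n = 5, SD) to 0.07 for CCNB1. In brain 6 of the 9 passed the filter on a mean of at least 1 TPM, and 0 were called, likewise 0 at an unadjusted p under 0.05 (adjusted p from 0.726 to 0.940). Of all genes tested there 0.0% were called and 1080 of 13095 had an unadjusted p under 0.05.

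CDKN3, a phosphatase that takes the activating phosphate off cyclin-dependent kinases, had another distribution than the other 8 genes. It averaged 19.7 ± 8.66 TPM in lymph (n = 9), 10.2 ± 2.09 in brain (n = 8), 5.11 ± 1.98 in backfat (n = 9), 15.3 ± 11.3 in loin (n = 9) and 27.3 ± 24.4 in tenderloin (n = 10, SD). In lymph it was higher than in backfat (1.64 log2, SE 0.34, adjusted p = 4.46e-05), and the contrasts with brain (0.74, adjusted p = 0.0568), loin (0.46, adjusted p = 0.216) and tenderloin (-0.18, adjusted p = 0.636) did not pass. The contrast with brain passed without S0235 (0.73, adjusted p = 0.0332) and without S0385 (0.88, adjusted p = 0.0279). With median-ratio scaling, which sets the median gene level across libraries, lymph was higher than brain (1.19, adjusted p = 0.00225) and lower than tenderloin (-1.09, adjusted p = 0.00279).

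In loin CDKN3 separated the types. It lay at 6.71, 7.48, 4.64, 5.90 and 6.87 TPM in the ET libraries of S0235, S0242, S0276, S0309 and S0326, against 22.2, 35.1, 24.2 and 24.7 TPM in the L libraries of S0349, S0377, S0384 and S0385. The groups did not overlap, and every L library was more than double any ET library. It was lower in ET (-1.90 log2, SE 0.18, adjusted p = 0.000383), in a tissue where 25.2% of all genes tested were called lower and 21.6% had ET below L without overlap. The median over all genes tested was -0.23, and CDKN3 was at -1.70 (adjusted p = 0.00122) with median-ratio scaling. With the left-out loin library of S0355 included, which held fat cell transcripts and 3.77 TPM of CDKN3, it did not pass (-1.40, adjusted p = 0.0924).

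In tenderloin the same comparison did not pass (-0.98, adjusted p = 0.382). CDKN3 lay at 77.3, 11.05, 5.88, 9.56 and 9.42 TPM in the ET libraries of S0235, S0242, S0276, S0309 and S0326, against 16.03, 16.5, 27.6, 60.9 and 39.1 TPM in the L libraries of S0349, S0355, S0377, S0384 and S0385. All ET libraries but that of S0235 lay below all L libraries, and S0235 was the highest of all 10. Without S0235 the difference was -1.58 (adjusted p = 0.0594). The same animal had 6.71 TPM in loin, so that its tenderloin value was 11.5 times its loin value. In the other 4 ET animals with both muscles the tenderloin value was 1.27 to 1.62 times the loin value. None of the 3 genes that passed the filter in tenderloin was called (0 at an unadjusted p under 0.05), where 1.4% of all genes tested were called higher and 0.23% lower, and 2208 of 10849 had an unadjusted p under 0.05.

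**Figure D4:**
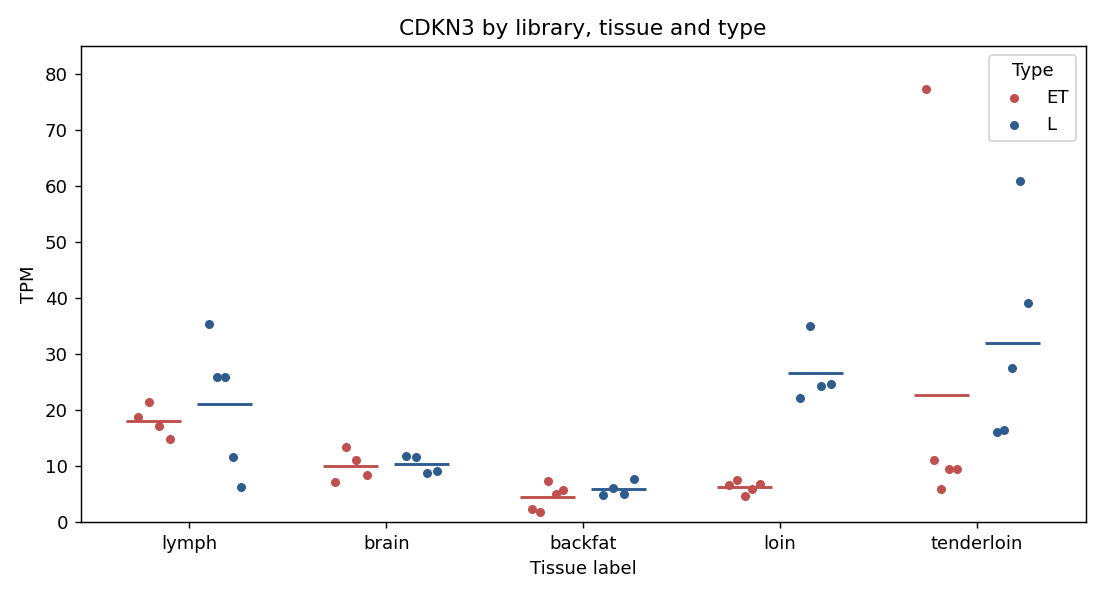
CDKN3 in TPM is shown for each kept library by tissue label, ET left of L, with a line at each group's mean. The ET loin libraries at 4.64 to 7.48 TPM lie apart from the L loin libraries at 22.2 to 35.1 TPM, and 1 ET tenderloin library stands at 77.3 TPM.

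Genes of division were near the floor in loin and tenderloin, so that little else could be compared there. BIRC5, CDKN3 and PCNA alone passed the filter in each muscle. MKI67 lay at 0 to 0.123 TPM in loin and TOP2A at 0 to 0.131 TPM. PCNA lay at 14.1 ± 2.08 TPM in ET (n = 5) and 14.1 ± 3.73 TPM in L (n = 4, SD) in loin, a difference of 0.02 log2 (adjusted p = 0.933). BIRC5 lay at 3.29 ± 1.06 TPM in ET (n = 5) and 3.11 ± 0.697 TPM in L (n = 4, SD; 0.04 log2, adjusted p = 0.900). Neither difference exceeded the spread between animals.

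The wider lists were called lower in ET loin at no more than about the rate of all genes tested there, 25.2%. Of 16 DNA replication genes tested, 4 were lower in ET (among them CCNE1, MCM7 and FEN1) and CHEK1 was higher, with 6.17% of all genes tested higher. CCNE1, cyclin E1, lay at 1.098 to 3.08 TPM in ET and 3.61 to 8.72 TPM in L (-1.08 log2, adjusted p = 0.0139). Of 13 mitosis genes 1 was lower (INCENP), and of 11 brakes and G1 regulators 3 were lower, among them CDKN1A at 88.2 TPM in ET (n = 5) and 336 TPM in L (n = 4; -2.03 log2). With median-ratio scaling 2 mitosis genes were higher and 0 lower, against 1317 higher and 1204 lower of all 11137 genes tested. Fibroblast markers moved with the types as well, with 4 of 4 higher in ET loin and sums of 131 to 709 TPM in ET and 110 to 196 TPM in L. The 3 red cell markers summed to 28.8 to 92.0 TPM in ET and 3.10 to 12.7 TPM in L. Of these, HBA and HBB were called higher in ET. The muscle fibre marker ACTA1 was called higher too, and the fat cell marker LIPE and the pituitary marker POMC lower. The 3 muscle stem cell markers summed to 66.1 to 91.7 TPM in ET and 25.1 to 128 TPM in L, and none was called. The part of other cell types in the CDKN3 difference was not tested.

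In backfat, RRM2 was higher in ET animals. It lay at 2.997, 2.10, 2.21, 2.42 and 3.87 TPM in the ET libraries of S0235, S0242, S0276, S0309 and S0326, against 0.173, 0.187, 0.379 and 0.0652 TPM in the L libraries of S0349, S0377, S0384 and S0385. The groups did not overlap. The difference was 1.62 log2 (SE 0.26, adjusted p = 0.00675), and it was the 1 call among the 7 genes that passed the filter, where 7.53% of all genes tested were called higher and 1.04% lower. RRM2, MKI67, CDK1 and TYMS passed the filter through their ET levels, since their L means were under 1 TPM.

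MKI67 and TOP2A also had all 5 ET backfat libraries above all 4 L libraries. Among the 7 genes that passed the filter this held for RRM2 and MKI67, against 11.9% of all genes tested. Both passed the filter through their ET levels, so this is a description only. MKI67 lay at 3.69, 0.381, 1.61, 1.05 and 2.15 TPM in ET, against 0.0636, 0.290, 0.105 and 0.0901 TPM in L. It did not pass over all genes tested (1.17 log2, SE 0.35, adjusted p = 0.0622), but did without the filter (adjusted p = 0.0463), with a pseudocount of 0.1 (2.77, adjusted p = 0.0378) and without S0242 (1.39, adjusted p = 0.0347). TOP2A lay at 1.63, 0.830, 0.785, 1.77 and 1.70 TPM in ET, against 0.268, 0.0944, 0.148 and 0.0820 TPM in L. Its mean was under the filter, and without the filter it was higher in ET (1.004 log2, SE 0.17, adjusted p = 0.0137).

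CCNB1, also under the filter, lay at 1.43, 0.363, 1.55, 1.38 and 1.59 TPM in ET and at 0, 0.0625, 0.758 and 0.0544 TPM in L (0.89 log2 without the filter, adjusted p = 0.0506). CDK1 lay at 0.726 to 2.56 TPM in ET and 0.449 to 0.924 TPM in L (0.72 log2, adjusted p = 0.135). The groups overlapped for both genes. For TYMS the difference was 0.67 (adjusted p = 0.392), for BIRC5 -0.02 (adjusted p = 0.968), for PCNA -0.12 (adjusted p = 0.804) and for CDKN3 -0.45 (adjusted p = 0.451). The median over all genes tested was 0.29.

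**Figure D5:**
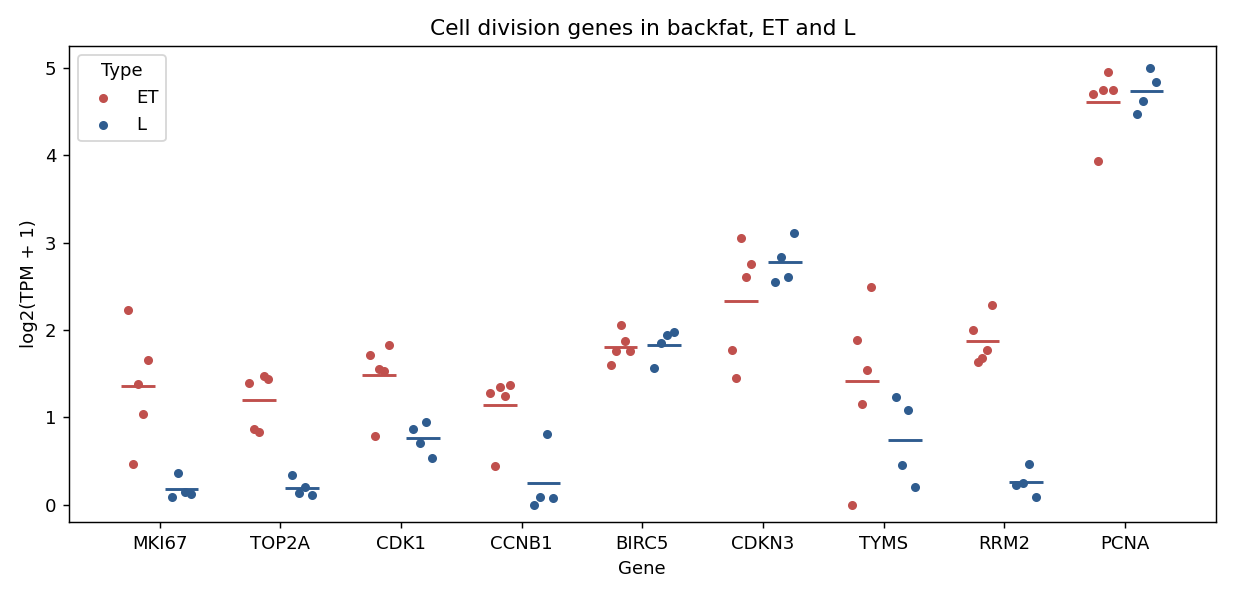
Each point is a backfat library, as log2(TPM + 1), for each gene with ET left of L and a line at each group's mean. ET lies above L without overlap for RRM2, MKI67 and TOP2A, and the groups lie together for BIRC5 and PCNA.

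Of 22 other mitosis genes tested in backfat, 3 were higher in ET and 0 lower, where 7.53% of all genes tested were higher and 1.04% lower. The filter admits genes through the group where they are high, as it did UBE2C, so the count is a description only. These were UBE2C, which marks cyclins for destruction (7.15 TPM in ET, n = 5, and 0.591 TPM in L, n = 4; 2.26 log2, adjusted p = 0.00675), CCNB2, cyclin B2 (1.85 log2, adjusted p = 0.0272), and TPX2, a spindle assembly factor (1.04 log2, adjusted p = 0.0462). With median-ratio scaling 1 was higher, against 496 of all 11986 genes tested. By limma 0 of 23 DNA replication genes were called (1 at an unadjusted p under 0.05) and 0 of 14 brakes and G1 regulators (5 at an unadjusted p under 0.05). Markers of several cell types moved with the types too. The 5 myeloid markers summed to 213 to 686 TPM in ET and 35.9 to 49.3 TPM in L, with 4 called higher. The 5 T cell markers summed to 3.88 to 9.18 TPM in ET and 0.0318 to 1.71 TPM in L, with 2 called higher (CD2 and CD3E). The 4 fat cell markers summed to 8192 to 17627 TPM in ET and 484 to 7357 TPM in L, with 3 called higher, and the 4 fibroblast markers to 5038 to 15718 TPM in ET and 925 to 3515 TPM in L, with 2 called higher. The 3 red cell markers summed to 95.0 to 647 TPM in ET and 2.92 to 67.5 TPM in L, with 2 called higher, and the 4 germinal centre markers to 24.4 to 85.5 TPM in ET and 13.5 to 23.5 TPM in L, with 2 called higher. The 4 B cell markers went the other way, with sums of 12.1 to 16.9 TPM in ET and 23.8 to 38.9 TPM in L, and CD79A was called lower. The part of these cells in the RRM2 difference was not tested.

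In the F test of the interaction of type and tissue 2 of 9 genes passed, a share near the 21.7% of all genes tested. RRM2 passed (F = 5.71, limma adjusted p = 0.00912; 0.0193 with a replicate block for the animal). MKI67 passed as well (F = 4.11, adjusted p = 0.0360), but not with the replicate block (adjusted p = 0.0572). It did not pass without S0235 (adjusted p = 0.108), S0276 (0.0915), S0309 (0.0693), S0326 (0.131), S0349 (0.0982) or S0377 (0.109). CDKN3 did not pass (F = 3.12, adjusted p = 0.0879), but did without S0235, whose tenderloin value stood apart (F = 6.38, adjusted p = 0.00690).

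Among the 4 tissues other than lymph, the highest tissue means were those of PCNA in brain (31.0 TPM) and CDKN3 in tenderloin (27.3 TPM), and CDKN3 had the widest difference, -1.81 log2 for backfat minus tenderloin (limma adjusted p = 4.81e-06). Of 54 contrasts (9 genes in 6 pairs of tissues), 28 were higher and 5 lower in the first tissue, over brain, backfat, loin and tenderloin in that order, against 55.8% and 13.7% of all contrasts tested. With median-ratio scaling 9 were higher and 10 lower. Of the 13231 genes then tested, 4926, 5283 and 5141 were higher in brain than in backfat, loin and tenderloin, and 4247, 4727 and 4682 lower. Backfat minus loin had 5094 higher and 4699 lower, backfat minus tenderloin 4956 and 4529, and loin minus tenderloin 1759 and 1515. By pair, brain minus backfat gave 2 higher and 1 lower (61.5% and 15.6% of all genes tested), brain minus loin 7 and 1 (73.6% and 11.8%) and brain minus tenderloin 5 and 1 (75.3% and 11.5%). Backfat minus loin gave 7 and 1 (55.4% and 19.0%) and backfat minus tenderloin 6 and 1 (57.7% and 16.8%). CDKN3 was the lower gene in the backfat pairs and in brain minus tenderloin, and BIRC5 in brain minus backfat and brain minus loin. Whole tissues shifted with the scaling: the median over all genes tested was 1.29 for brain minus loin, 1.33 for brain minus tenderloin and 0.73 for brain minus backfat, and 0.55 and 0.59 for backfat minus loin and minus tenderloin.

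TYMS kept its direction in both muscle contrasts of brain under scaling. It averaged 2.90 ± 1.52 TPM in brain (n = 8) and 0.176 ± 0.139 TPM in loin (n = 9, SD), a difference of 1.66 (limma adjusted p = 1.29e-08, and 0.000191 under scaling). PCNA changed direction: brain minus loin was 1.07 in the values as deposited and -0.33 with scaling, brain minus tenderloin was 1.03 and -0.41, and brain minus backfat was 0.30 and -0.41. With scaling the differences from tenderloin (adjusted p = 0.0245) and backfat (adjusted p = 0.0286) passed, and that from loin did not (adjusted p = 0.0783). RRM2 was higher in backfat than in loin (0.98, adjusted p = 0.000724) and tenderloin (0.82, adjusted p = 0.00319), and passed with scaling too (adjusted p = 0.00243 and 0.0225). Its backfat values came from the ET libraries, as given above.

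Between loin and tenderloin 1 of 9 genes was called, higher in loin, a share near the 11.5% of all genes tested that were higher there. BIRC5 was at 3.21 ± 0.865 TPM in loin (n = 9) and 1.91 ± 0.583 TPM in tenderloin (n = 10, SD, 0.54 log2, limma adjusted p = 0.0325). It did not pass without S0242, S0276, S0309 or S0385 (adjusted p = 0.0905, 0.0629, 0.0665 and 0.0916).

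The genes outside these lists whose 10 group means lay closest to the mean profile of the 9 genes were FLT3, KYNU, SH22A (SH2D2A), CXL11 (CXCL11), CTLA4, GPR65, I23O1 (IDO1), SLAF8 (SLAMF8), SKA1 and SPNS3. Their root mean square difference from that profile was 0.133 to 0.208 log2 units over the 10 groups. SKA1 belongs to the kinetochore, where spindle fibres attach, and CTLA4 is an inhibitory receptor of T cells. FLT3, a receptor of blood-forming and dendritic cells, averaged 10.5 TPM in lymph and at most 0.576 TPM in the mean of another tissue. Of the 50 nearest genes 6 were on the division lists, against 92 of 13445 compared. CDKN3 ranked 6118, and the other 8 ranked between 149 and 479.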

How the data were processed

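Stranded mRNA libraries from TRIzol-extracted RNA were sequenced, as the labels' protocols state. What the authors deposited is the TPM of 57085 assembled transcripts per library, and each column sums to 1000000. Trimmomatic 0.36 and Salmon 1.10.0 are named in the submitters' processing notes, with the pig build Sscrofa11.1; the sources used here do not give their settings. The read depth is unknown, so no counting interval is given.

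Transcripts were given the Swiss-Prot entry of the best match in the deposited annotation table at an E value of at most 1e-10, leaving out repeat (2447) and non-animal (21) proteins. This used 32152 transcripts. The 5 libraries named above were left out. limma 3.58.1 in R 4.3.3 was fitted to log2(TPM + 1) with an intensity trend, two-sided, with Benjamini-Hochberg adjustment over all genes with a mean of at least 1 TPM in the libraries of the fit, and called at an adjusted p under 0.05. Type contrasts used each tissue's libraries. Tissue contrasts and the interaction used all 45. The fits were tested on simulated data. Gene positions are RefSeq's.

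Each pig's tissues share its number in the labels, which pairs them: deviations from group means correlated with a median r of 0.152 (84 pairs of the same animal), against -0.0512 (320 pairs of different animals of 1 type). Nothing says how tissue was taken, so p-values measure the spread between these libraries. The members, the wider lists (DNA replication, mitosis, brakes and G1 regulators) and the markers were chosen with earlier results of these data known. All members are named; of the wider lists, up to 4 called genes per direction and comparison by smallest p, and the 10 genes of nearest profile. Genes of these lists that did not pass were named after their values were seen. Single values of some list and marker genes are not reported here. The alternatives were all 50 libraries, a pseudocount of 0.1, no filter, median-ratio scaling, 1 transcript per entry, an E value of at most 1e-50, each animal left out and a replicate block.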

Additional observations from a re-analysis of the deposited data

Results flagged for a closer look

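Of 90 groups of libraries (9 genes, 5 tissues, 2 types), 8 held a value that stood apart from the rest of its group by Dixon's test, and chance alone gives about 1 in 20. In brain, the L library of S0384 stood apart for 3 genes: MKI67 at 3.14 TPM (0.0792 to 0.181 in the other 3), TOP2A at 1.38 TPM (0.0860 to 0.150) and RRM2 at 3.84 TPM (0.287 to 0.513). The T cell markers summed to 21.6 TPM in that library, against 3.12 to 3.66 TPM in the other L brain libraries, and the part of T cells was not tested. In backfat, CCNB1 stood apart in the ET library of S0242 at 0.363 TPM (1.38 to 1.59 in the others) and in the L library of S0384 at 0.758 TPM (0 to 0.0625). In muscle, CDKN3 stood apart in the ET tenderloin library of S0235 at 77.3 TPM (5.88 to 11.05), TYMS in the L tenderloin library of S0349 at 0.657 TPM (0 to 0.175), and TOP2A in the L loin library of S0377 at 0.0184 TPM, with the other 3 listed at 0.

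The difference between ET and L varied with tissue in the interaction test for MKI67 (F = 4.11) and RRM2 (F = 5.71). These 2 of 9 genes are a share near the 21.7% of all genes tested. MKI67 did not pass with the replicate block (adjusted p = 0.0572) or without any of 6 animals (S0235, S0276, S0309, S0326, S0349, S0377; adjusted p from 0.0693 to 0.131). Without S0384, the brain library of which stood apart for both genes, F was 6.13 for MKI67 (adjusted p = 0.0100) and 9.32 for RRM2 (adjusted p = 0.00124).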

How the results depend on the processing

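The 8 genes higher in lymph than in each other tissue stayed 8 under each alternative but an E value of at most 1e-50, which drops MKI67 (7 of 8). RRM2 in backfat and CDKN3 in loin passed with any 1 animal left out, at 1.51 to 1.69 and -1.98 to -1.77. With all 50 libraries, 0 genes were called in loin (1 without the left-out libraries), 14 contrasts among the other tissues (33) and 0 interactions (2). With median-ratio scaling 19 contrasts were called and 1 interaction, where 2072 of all 13231 genes tested passed for the interaction. The interaction count was also 1 with 1 transcript per entry (2057 of all 13321 genes tested) and with E of at most 1e-50 (2608 of 12544). It was 1 as well with the replicate block (3858 of 13445). The block left the lymph count (8) and that of the other contrasts (33) as they were. It was not run within single tissues, where each animal has 1 library. In backfat 2 genes were called with a pseudocount of 0.1 and 3 with no filter, against 1. Over all genes tested there, 1028 of 12109 and 901 of 14284 were called, against 1038 of 12109. Leaving out 1 animal gave 1 to 2 calls in backfat, 1 to 2 interactions and 26 to 36 contrasts among the other tissues. The counts were 0 in lymph, brain and tenderloin, 1 in loin and 8 in the lymph comparison throughout. Over all genes tested, backfat calls ran from 316 (without S0384) to 1374 (without S0276). Interactions ran from 1582 (without S0377) to 3131 (without S0355), and loin calls from 1913 (without S0377) to 3339 (without S0384). Among results called or named, direction changed under scaling for PCNA in brain minus loin (-0.33) and brain minus tenderloin (-0.41) and for CDKN3 in lymph minus loin (-0.40). Of tissue contrasts not called as deposited, PCNA (-0.41, called), CDK1 (-0.12) and CCNB1 (-0.14) in brain minus backfat and BIRC5 in backfat minus tenderloin (-0.21) changed too, as did 1 contrast and 5 type differences near 0. It changed with an animal left out for BIRC5 (-0.11 to 0.030) and PCNA (-0.20 to 0.054) in backfat and CDKN3 in lymph minus tenderloin (-0.39 to 0.10), none of which passed. The cause was not tested. MKI67 in backfat had no value where its mean fell under the filter: with scaling, with all 50 libraries and without S0235, S0276 or S0326. Depth is unknown, and levels under 1 TPM limit what loin and tenderloin can show.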
